A study of Mus musculus with 9 samples.

Results

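Claudins are the membrane proteins that decide what passes between neighbouring epithelial cells. They span the membrane 4 times and line up in the tight junction, where some, such as Cldn3, Cldn4, Cldn7 and Cldn8, mainly seal the space between cells. Others, Cldn2 and Cldn15, form pores that let sodium and other small cations through. In the small intestine Cldn2 is best known from the crypt, Cldn15 from crypt and villus, and Cldn23 from the more differentiated surface cells.

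The 9 claudins described here are Cldn1, Cldn2, Cldn3, Cldn4, Cldn7, Cldn8, Cldn12, Cldn15 and Cldn23. They were taken by symbol from the 23951 genes of each deposited expression table, and all 9 were found in both tables. RNA had been sequenced from crypts of the mouse jejunum, the pockets of the gut lining that hold stem, progenitor and Paneth cells, in 9 libraries: 3 control, 3 Smad4 KO and 3 double mutant, each numbered 0 to 2. Smad4 KO mice were Smad4f/f;Villin-CreER(T2), with floxed alleles of Smad4, a transcription factor that BMP and TGF-beta signalling have in common. Villin-CreER(T2) is a recombinase of the intestinal epithelium that tamoxifen switches on. Double mutants were Smad4f/f; Ex3f/+;Villin-CreER(T2), and so carried in addition 1 allele of the beta-catenin gene Ctnnb1 from which the recombinase removes exon 3, which leaves a stabilised beta-catenin. Both mutant groups were given tamoxifen on 4 days in a row and were collected 1 day later. The alleles of the control mice are not stated beyond "control", and their treatment is given as vehicle in 1 label and as no injection in the design text. Tamoxifen, and recombinase as far as it is stated, came with the mutant genotypes only, so these factors cannot be told apart from genotype. Ages are not given. 

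Levels are FPKM, fragment counts scaled to transcript length and library size, so genes can be compared with each other within a library. The tables were scaled separately: 1 holds controls and Smad4 KO, the other the same controls and the double mutants, and each control value differed between them by a fixed factor of 1.03 to 1.06. Controls are therefore quoted from the table of the mutant they stand beside. FPKM keeps no read number, so absolute depth is unknown. The spacing of the lowest values put the libraries at 0.956 to 1.43 times control 0. This estimate is rough, since ratios far from 1 were left out of it. Control 1 came out at 1.09 beside Smad4 KO and at 1.04 beside the double mutants. Smad4 was at 46.1, 55.5 and 47.8 FPKM across controls 0, 1 and 2, and at 11.03, 9.96 and 10.8 in Smad4 KO 0, 1 and 2. In the double mutants it was at 11.2, 10.2 and 9.95 FPKM. Smad4 was thus low in every library labelled as mutant. The removal of Ctnnb1 exon 3, which sets double mutants apart, cannot be read from gene-level FPKM and was not checked. Xist and Y-linked transcripts marked control 2, Smad4 KO 1 and 2, and double mutants 0 and 2 as female, and the other libraries as male. Whether each library is a mouse of its own is not stated in the labels, so p-values measure the spread between these libraries, which may in part be technical.

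In control crypts mean claudin levels ran from 681 FPKM for Cldn7 down to 1.19 FPKM for Cldn8, with Cldn1 at or near 0. Cldn7, a sealing claudin of the whole gut epithelium, led with 681 ± 106 FPKM (SD, n = 3). The pore former Cldn15 followed at 359 ± 81.3 FPKM, Cldn3, a sealing claudin, at 173 ± 23.6, and the crypt pore former Cldn2 at 73.9 ± 10.4 (SD, n = 3 each). The control libraries of each of these 4 genes lay entirely above those of the next. Cldn12, which has been linked to calcium passage, Cldn4 and Cldn23 formed a lower group whose control libraries overlapped, at 23.6 ± 2.21, 20.7 ± 2.56 and 18.0 ± 6.79 FPKM (SD, n = 3 each). Cldn8, a sealing claudin better known from the distal gut and kidney, was at 1.19 ± 0.469 FPKM (SD, n = 3). Cldn1, the main sealing claudin of the skin, was listed at 0.0322, 0 and 0.112 FPKM across controls 0, 1 and 2. Cldn7 thus made up 50.4% of the summed FPKM of the 9 genes, Cldn15 26.4%, Cldn3 12.8% and Cldn2 5.60% on average.

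**Figure D1:**
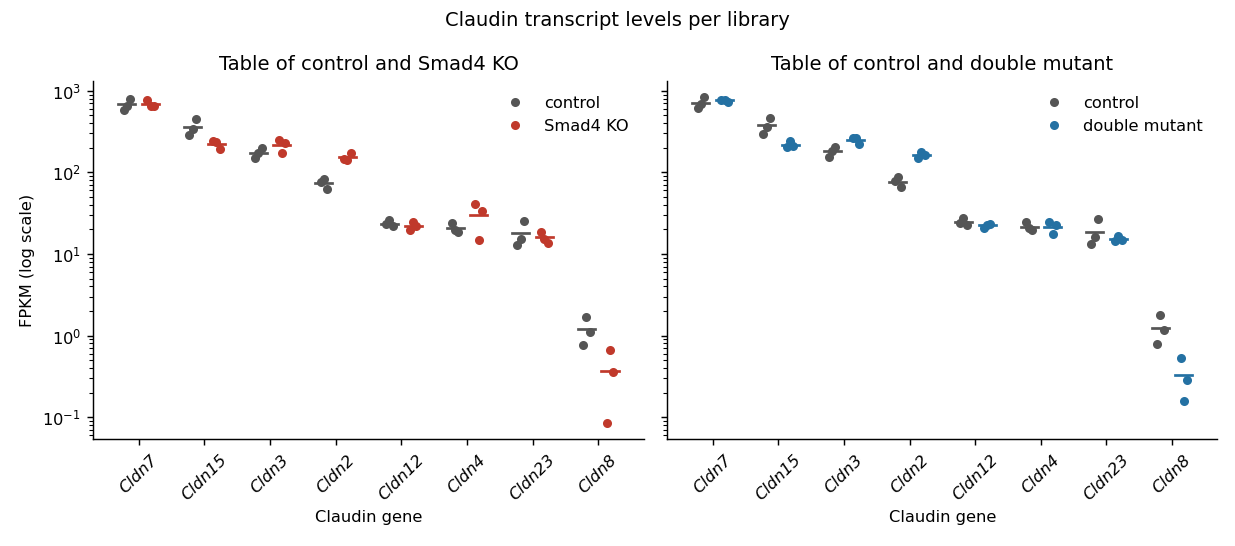
FPKM (log axis) of 8 claudins in each library, with controls in grey, Smad4 KO in red and double mutants in blue; dots are libraries in the order 0 to 2 and bars are means. Cldn2 libraries of both mutant groups lie above all controls and those of Cldn15 and Cldn8 below them, while Cldn7 and Cldn12 overlap; Cldn1, at or near 0, is not drawn.

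Order in the mutants differed in the middle of the list. In Smad4 KO, Cldn15 (223 FPKM) and Cldn3 (218 FPKM) had overlapping libraries, and those of Cldn3 also overlapped with those of Cldn2 (154 FPKM). In the double mutants Cldn3 (250 FPKM) stood above Cldn15 (219 FPKM) on average, again with overlapping libraries. Cldn7 remained first in every group.

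The promoters of Cldn2 and Cldn15 are shown because these were the pore formers whose levels differed in opposite directions. They run from 250 bases before to 50 bases after the RefSeq start of transcription, on build GRCm38.p6, while the FPKM values rest on build mm9. Cldn2 is read from the plus strand at chrX:139800558-139800857, and Cldn15 from the plus strand at chr5:136967619-136967918. Capitals mark TTTAT, on either strand, the core of the sites bound by the intestinal CDX factors.
Cldn2: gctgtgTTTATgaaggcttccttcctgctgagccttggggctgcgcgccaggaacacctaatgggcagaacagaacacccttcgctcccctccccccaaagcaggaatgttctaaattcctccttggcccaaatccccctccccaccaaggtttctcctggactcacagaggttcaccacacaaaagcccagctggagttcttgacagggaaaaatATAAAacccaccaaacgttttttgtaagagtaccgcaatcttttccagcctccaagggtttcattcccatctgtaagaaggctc
Cldn15: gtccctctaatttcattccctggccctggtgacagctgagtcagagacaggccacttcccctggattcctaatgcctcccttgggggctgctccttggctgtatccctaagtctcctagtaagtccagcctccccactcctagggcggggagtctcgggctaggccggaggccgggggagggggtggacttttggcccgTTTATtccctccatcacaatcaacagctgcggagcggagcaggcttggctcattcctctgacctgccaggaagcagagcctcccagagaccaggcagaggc

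Cldn2 held 2 matches, beginning at positions -244 and -34 from the start, and the second lies within the letters TATAAA. Cldn15 held 1 match, at position -51. RefSeq promoters were found for 7 of the 9 genes (10 windows, since Cldn7 and Cldn12 have several starts), not for Cldn8 and Cldn23. TTTAT was in 2 of these 10 windows, and so in 2 of the 7 genes, against 40.0% of all 32851 promoter windows of that length. The Cldn12 windows overlap each other, so the 10 are not independent. The other 4 motifs searched on both strands were in 0 of the 10 windows: CTTTGA of TCF/LEF factors (16.0% of all windows), GTCTAGAC of SMAD factors (0.213%), AGATAA of GATA factors (11.2%) and the palindromic HNF1 motif (0.00913%). Reverse matches of TTTAT can be shared with TATA boxes, as in Cldn2. These matches describe letters only. Cdx2, chosen for this motif after its values were seen, was at 76.1 ± 12.5 FPKM in Smad4 KO against 93.2 ± 9.42, and at 97.3 ± 10.2 in double mutants against 97.5 ± 10.8 (SD, n = 3 each). Neither difference, -0.30 and -0.00092 in log2, passed (limma adjusted p = 0.351 and 0.996).

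The first comparison asked how the claudins differed after loss of Smad4 alone. Cldn2 stood at 2.09 times and Cldn15 at 62.1% of the control mean, with no overlap between mutant and control libraries, but no claudin passed the test over all genes. Cldn7, Cldn12 and Cldn23 stood near control levels, and Cldn3 and Cldn4 were higher on average with overlapping libraries. The test was limma on log2(FPKM + 1), two-sided, for genes averaging 1 FPKM or more over the 6 libraries, with Benjamini-Hochberg adjustment over the 11849 genes tested and a threshold of 0.05. Of the 9 claudins 7 were tested, and Cldn1 and Cldn8 were too low. Limma called 0 of the 7, where it called 0.0338% of all genes (0.00844% higher and 0.0253% lower). At an unadjusted p below 0.05 there were 2 of 7, Cldn2 and Cldn15, against 19.1% of all genes. Libraries did not overlap for the same 2 of 7, 1 above and 1 below the controls, against 26.4% of all genes (14.2% above and 12.2% below). The median log2 fold change was 0.03 over the 7 and -0.0032 over all genes tested.

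Cldn2 was at 75.5, 83.4 and 62.8 FPKM across controls 0, 1 and 2, and at 147, 141 and 174 in Smad4 KO 0, 1 and 2. All 3 mutant libraries lay above all 3 controls. The log2 fold change was 1.05 (SE 0.15, 95% interval 0.68 to 1.43, limma adjusted p = 0.106), on the log2(FPKM + 1) scale, which understates changes of low genes. Cldn2 lies on the X chromosome, and the sexes were unevenly spread. Among male libraries the value was 147 FPKM in Smad4 KO 0 against 75.5 and 83.4 in controls 0 and 1. Among females it was 141 and 174 against 62.8, so the mutants were higher within each sex.

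Cldn15 was at 287, 344 and 447 FPKM across controls 0, 1 and 2, and at 241, 233 and 195 in Smad4 KO 0, 1 and 2. The mutant libraries all lay below the controls, which were themselves widely spread. The log2 fold change was -0.67 (SE 0.21, 95% interval -1.17 to -0.16, limma adjusted p = 0.185). In a bulk preparation fewer cells of a type and less RNA in each cell cannot be told apart, and this holds for every value here.

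The sealing claudins gave no common direction. Cldn3 was at 151, 171 and 198 FPKM in controls and at 248, 174 and 230 in Smad4 KO, where library 1 lay within the control range (log2 fold change 0.32, SE 0.19, limma adjusted p = 0.404). Cldn4, a sealing claudin that is also a receptor of a clostridial toxin, was at 23.6, 19.8 and 18.8 FPKM in controls and at 40.7, 14.98 and 34.0 in Smad4 KO. Libraries 0 and 2 were thus above and library 1 below all controls (log2 fold change 0.40, SE 0.36, limma adjusted p = 0.581), and leaving out mutant library 0, 1 or 2 moved the log2 fold change to 0.13, 0.82 or 0.25. Cldn7 was at 589, 657 and 797 FPKM in controls and at 780, 645 and 650 in Smad4 KO, fully within the control range. Its log2 fold change of 0.03 had a 95% interval of -0.46 to 0.52 (limma adjusted p = 0.953), and its sign turned without control 0 (-0.070) or Smad4 KO 0 (-0.06).

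Of the remaining members, Cldn12 ranged from 21.7 to 26.0 FPKM in controls and from 19.8 to 24.5 in Smad4 KO (log2 fold change -0.09, 95% interval -0.38 to 0.21, limma adjusted p = 0.731). Cldn23 ranged from 12.9 to 25.7 and from 13.7 to 18.7 FPKM (log2 fold change -0.12, SE 0.26, limma adjusted p = 0.840), and its log2 fold change was 0.15 without control 2. Cldn8 was at 0.769, 1.70 and 1.11 FPKM in controls and at 0.0848, 0.665 and 0.362 in Smad4 KO. Every mutant library was lower, at 31.1% of the control mean, and limma without the filter on low genes gave a log2 fold change of -0.68 (adjusted p = 0.263). Cldn1 was listed at 0.0308, 0 and 0.186 FPKM in Smad4 KO, overlapping with controls.

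**Figure D2:**
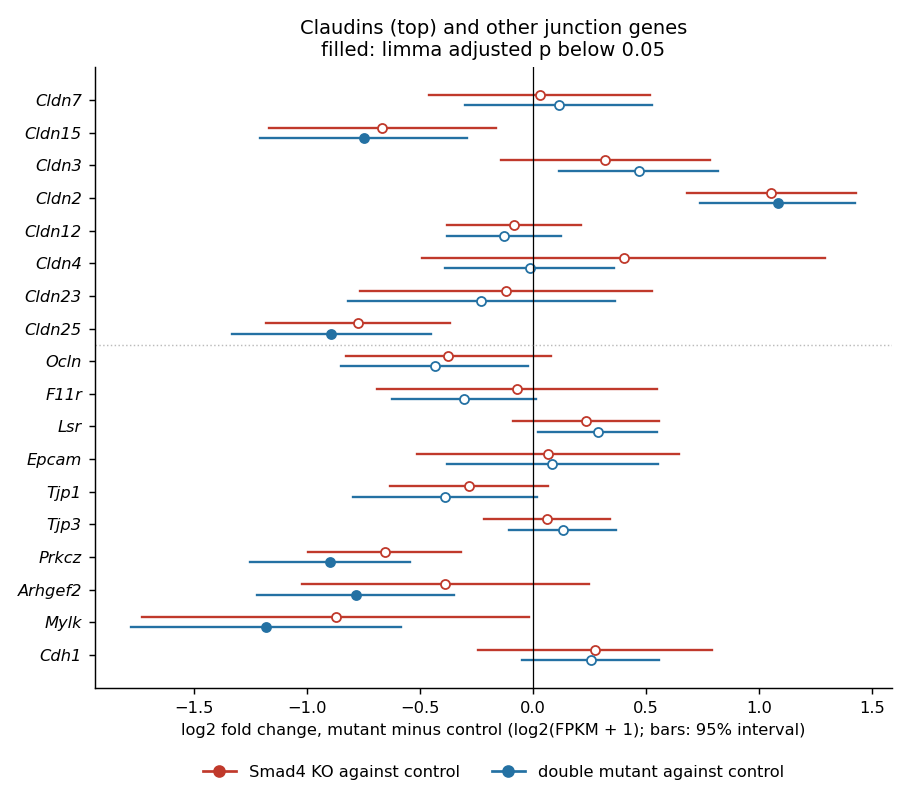
Log2 fold changes (mutant minus control, on log2(FPKM + 1)) with 95% intervals, Smad4 KO in red and double mutants in blue. Above the dotted line are the 7 claudins tested and the entry named Cldn25, whose gene is uncertain, and below it other junction genes. Filled dots passed limma at an adjusted p below 0.05. Cldn2 is at 1.05 and 1.08 and Cldn15 at -0.67 and -0.75, and filled dots are seen only in the double mutants.

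The second comparison asked how the claudins differed when loss of Smad4 was combined with stabilised beta-catenin. Here Cldn2 rose to 2.12 times the control mean and Cldn15 fell to 58.4% of it. The other 5 claudins tested did not pass, among them Cldn3, whose libraries nevertheless all lay above the controls. Limma called 2 of 7 claudins, 1 higher and 1 lower, where it called 18.5% of all 11762 genes (9.39% higher and 9.09% lower). At an unadjusted p below 0.05 there were 3 of 7 against 36.6%, and libraries did not overlap for 3 of 7, 2 above and 1 below the controls, against 42.6% (21.3% above and 21.3% below). These shares are not far from those of all genes at this number of members, so the counts mark nothing particular to claudins. The median log2 fold change was -0.02 over the 7 and -0.0013 over all genes tested.

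Cldn2 was at 77.8, 88.4 and 65.5 FPKM across controls 0, 1 and 2 of this table, and at 149, 178 and 163 in double mutants 0, 1 and 2. No double mutant library came near the controls. The log2 fold change was 1.08 (SE 0.14, 95% interval 0.74 to 1.43, limma adjusted p = 0.0127). Leaving out double mutant 0 or 2 left the size at 1.15 and 1.08 but moved the limma adjusted p to 0.0512 and 0.0706. It stayed below 0.05 in the 13 other alternatives run. Among males the double mutant was at 178 FPKM against 77.8 and 88.4, and among females at 149 and 163 against 65.5.

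Cldn15 was at 296, 365 and 466 FPKM in controls and at 206, 239 and 213 in double mutants. The mutant libraries were close together and all below the lowest control. The log2 fold change was -0.75 (SE 0.19, 95% interval -1.21 to -0.29, limma adjusted p = 0.0428). The call sat near the threshold and ended in 8 of 15 alternatives, with adjusted p up to 0.147. It ended without control 1 (0.0877), control 2 (0.0726), or double mutant 0 (0.125), 1 (0.0798) or 2 (0.147), while the log2 fold change stayed between -0.91 and -0.58.

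Cldn3 was at 155, 181 and 206 FPKM in controls and at 263, 262 and 224 in double mutants. The groups did not overlap, at 1.38 times the control mean, and the test missed the threshold (log2 fold change 0.47, SE 0.15, 95% interval 0.11 to 0.82, limma adjusted p = 0.0730). With quantile normalization it passed (0.51, adjusted p = 0.0278). Cldn7 was at 607, 696 and 831 FPKM in controls and at 776, 775 and 737 in double mutants, within the control range (log2 fold change 0.11, SE 0.17, limma adjusted p = 0.665). Cldn4, which varied from 14.98 to 40.7 FPKM among the Smad4 KO libraries, was at 24.8, 17.4 and 22.5 in double mutants against 24.4, 21.0 and 19.6 in controls. Its log2 fold change of -0.02 had a 95% interval of -0.39 to 0.36 (limma adjusted p = 0.953) and was above 0 with quantile normalization (0.0023), without control 0 (0.07) and without double mutant 1 (0.12).

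Cldn12 ranged from 22.7 to 27.6 FPKM in controls and from 21.1 to 23.4 in double mutants (log2 fold change -0.13, 95% interval -0.38 to 0.12, limma adjusted p = 0.408). Cldn23 ranged from 13.3 to 26.8 and from 14.4 to 16.7 FPKM (log2 fold change -0.23, SE 0.24, limma adjusted p = 0.533). Its highest value was control 2, without which the log2 fold change was 0.044. Cldn8 was at 0.793, 1.80 and 1.16 FPKM in controls and at 0.532, 0.157 and 0.287 in double mutants, 26.0% of the control mean with all mutant libraries lower. Without the filter on low genes limma gave it a log2 fold change of -0.75 (adjusted p = 0.0712). Cldn1 stayed at or below 0.117 FPKM in every library of this table.

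Both comparisons used the same control libraries, and the mutant groups stand in tables scaled separately, so they were not tested against each other. Side by side, Cldn2 stood at 209% of control in Smad4 KO and 212% in double mutants, Cldn15 at 62.1% and 58.4%, Cldn3 at 126% and 138%, and Cldn8 at 31.1% and 26.0%. Cldn4 stood at 144% and 99.5%, the former with libraries on both sides of the controls.

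A share of the claudin total does not depend on how a library was scaled. The summed FPKM of the 9 genes was 1351 ± 207 in controls and 1355 ± 128 in Smad4 KO, and 1412 ± 221 and 1455 ± 56.7 in the second table (SD, n = 3 each), with overlapping libraries in both. Within that total Cldn2 made up 6.49, 6.33 and 3.99% in controls 0, 1 and 2, against 9.85, 11.3 and 13.2% in Smad4 KO and 10.3, 11.8 and 11.7% in double mutants. Cldn15 made up 24.7, 26.1 and 28.4% in controls, against 16.1, 18.7 and 14.7% in Smad4 KO and 14.2, 15.8 and 15.2% in double mutants. Both pore formers were thus separated from the controls in each mutant library, in opposite directions. The Cldn3 share lay between 12.6 and 12.98% in controls, and ran from 13.9 to 17.5% in Smad4 KO and from 16.0 to 18.1% in double mutants. Each of these 6 differences had an exact two-sided permutation p of 0.1, the smallest that 3 against 3 libraries can give, so none could reach 0.05. Other shares were separated at the same p. In double mutants Cldn7 made up 51.3 to 53.3% against 49.8 to 50.7% in controls, and Cldn23 0.988 to 1.105% against 1.110 to 1.64%. The Cldn8 share was at most 0.0532% in Smad4 KO and 0.0366% in double mutants, against at least 0.0662% in controls. Shares of the remaining members overlapped, as did those of Cldn7 and Cldn23 in Smad4 KO. A member's share also moves when other members do.

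**Figure D3:**
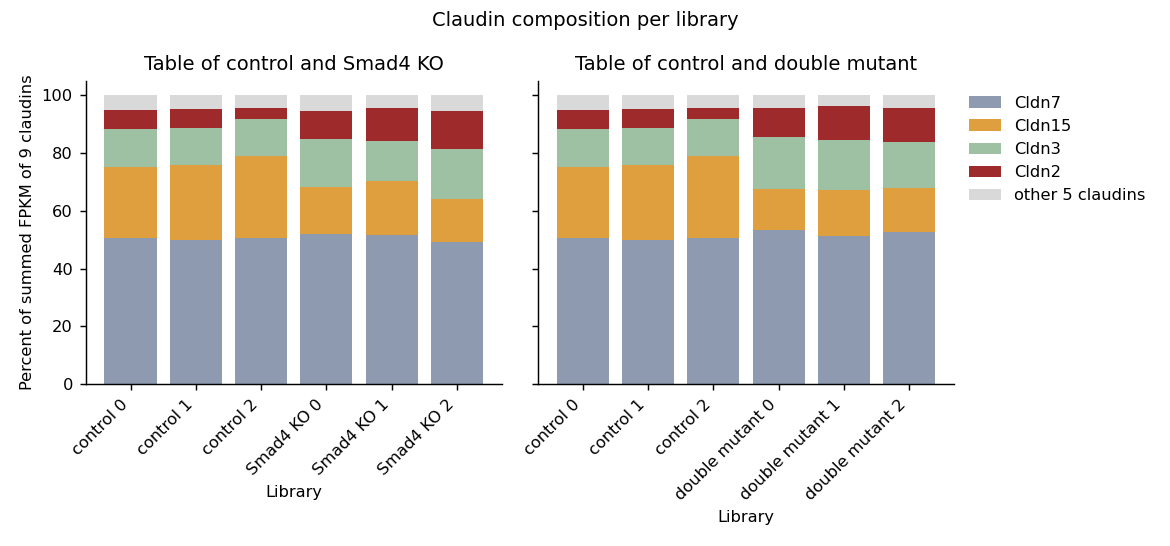
Share of the summed FPKM of 9 claudins (percent) in each library, for Cldn7, Cldn15, Cldn3, Cldn2 and the other 5 together, in the Smad4 KO table (left) and the double mutant table (right). The Cldn15 band is 24.7 to 28.4% in controls and at most 18.7% in mutants, while Cldn2 is at most 6.49% in controls and at least 9.85% in mutants.

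The ratio of Cldn2 to Cldn15, chosen after their values were seen, was 0.263, 0.242 and 0.140 in controls 0, 1 and 2. It was 0.611, 0.603 and 0.896 in Smad4 KO and 0.725, 0.746 and 0.767 in double mutants (exact two-sided permutation p = 0.1 in each table). The mutant ratios all lay above the control ratios.

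Enterocyte markers, the genes of the absorptive cells of the villus, varied between the same libraries. All 20 listed markers were detected in every library at 1 FPKM or more, and their summed FPKM ran from 4998 to 13545 in controls and from 1643 to 16781 in Smad4 KO. There 0 of 20 passed limma (2 at an unadjusted p below 0.05, against 19.1% of all genes). In double mutants the sum ran from 1652 to 3053 against 5153 to 14128 in controls, and 14 of 20 fell, where 9.09% of all genes were called lower. That count was 2, 5 and 1 without double mutant 0, 1 and 2, 6 without control 1, and 9 without the filter on low genes. Among the 14 was the brush border enzyme Sis (43.0 ± 12.4 against 446 ± 202 FPKM, SD, n = 3 each; log2 difference -3.29, limma adjusted p = 0.0107). Among controls, the order of Cldn15 (control 2, then 1, then 0) was the order of the mean log2 level of these markers (8.48, 7.52 and 7.17). Cldn3, Cldn7, Cldn23 and the claudin sum had the same order, so it was not particular to Cldn15. Cldn2, Cldn4 and Cldn12 had other orders. In Smad4 KO 0 the marker mean was 8.26, within the control range, but the marker sum of 16781 FPKM lay above all controls. Its Cldn15 was 241 FPKM and its Cldn2 147 FPKM. This library also differed in markers of other cells. Its 12 crypt stem cell markers summed to 398 FPKM against 792 to 1716 in controls, and its 10 Paneth markers to 12884 FPKM against 57527 to 164189. Smad4 KO 1 and 2, with marker means of 5.33 and 5.99, had Cldn15 at 233 and 195 FPKM and Cldn2 at 141 and 174. Marker means of the double mutants, 5.30 to 6.15, were all below the controls. The part of enterocyte markers in the claudin values was not tested in either comparison.

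**Figure D4:**
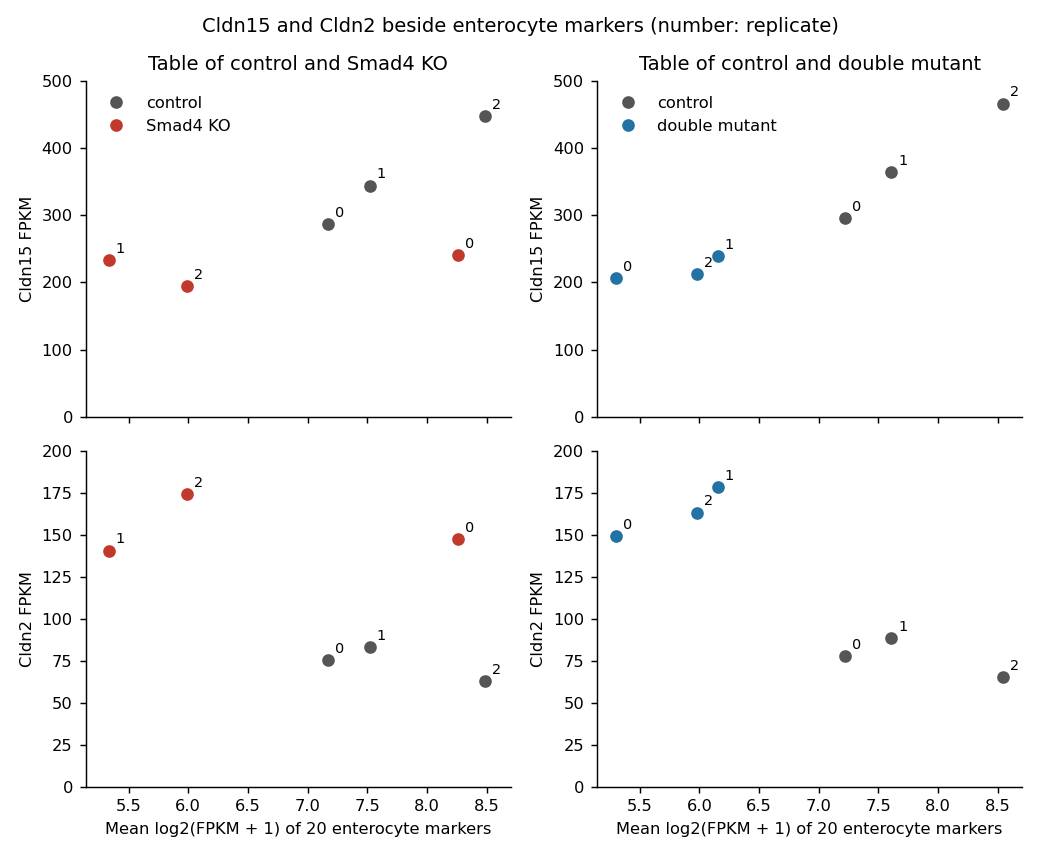
Cldn15 (top) and Cldn2 (bottom) in FPKM against the mean log2(FPKM + 1) of 20 enterocyte markers, 1 dot for each library with its replicate number, in the Smad4 KO table (left) and the double mutant table (right). Smad4 KO 0 lies at 8.26 on the marker axis, among the controls, but at 241 FPKM of Cldn15 and 147 FPKM of Cldn2, beside the other mutants. Its summed crypt stem cell and Paneth markers, not drawn, lay below those of all controls.

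Markers of other cells were read in the same way. Of 12 crypt stem cell markers 3 rose in double mutants, among them Lgr5 (16.9 ± 4.12 against 7.37 ± 1.22 FPKM, SD, n = 3 each, limma adjusted p = 0.0203), against 9.39% of all genes called higher. In Smad4 KO 0 passed (0 also at an unadjusted p below 0.05, against 19.1% of all genes). The 3 became 0 without double mutant 0 or 2 and 1 without control 1. The summed level of 12 stromal, endothelial and blood markers was 106 FPKM in Smad4 KO 2 and 69.6 in double mutant 0, and at most 12.0 in every other library of either table. Pdgfra was listed at 0 in all 3 controls. Smad4 KO 2 had the highest Cldn2 of its group and double mutant 0 the lowest of its own. Of 10 immune markers 8 were tested in double mutants and 5 fell (9.09% of all genes did), with sums of 440 to 910 FPKM against 585 to 1420 in controls. The 5 became 0 without double mutant 0, 1 or 2, and 1 without control 0, without control 2 or without the filter on low genes. In Smad4 KO 0 of 9 passed limma (0 also at an unadjusted p below 0.05, against 19.1% of all genes). The part of these cells in the claudin values was not tested. Cldn5, the claudin of blood vessel walls, did not exceed 0.0784 FPKM in any library.

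Most other claudins were scarcely detected. Of 17 further claudin entries in the tables, only the entry named Cldn25 reached a mean of 1 FPKM. RefSeq lists that name as an older symbol of both Cldnd1, a claudin-domain protein, and Cldn25-ps, so the gene behind the entry is uncertain. It was at 36.5, 47.4 and 53.3 FPKM in controls and at 28.1, 27.1 and 23.0 in Smad4 KO (log2 difference -0.78, SE 0.17, limma adjusted p = 0.126). In double mutants it fell to 21.0, 28.7 and 25.8 FPKM from 37.6, 50.2 and 55.6 (log2 difference -0.89, SE 0.18, limma adjusted p = 0.0270). The groups did not overlap in either table. The call in double mutants held without control 0 but ended without any other single library (adjusted p from 0.0525 to 0.0975).

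Claudins work with other membrane proteins of the junction and with a plaque of scaffolds beneath it. Of 15 listed membrane partners 10 were tested and 0 passed limma in either comparison, where 0.0338% and 18.5% of all genes were called. At an unadjusted p below 0.05 there were 0 in Smad4 KO against 19.1% of all genes, and 4 in double mutants against 36.6%. The median log2 fold change of the 10 was -0.06 in Smad4 KO and -0.13 in double mutants, against -0.0032 and -0.0013 over all genes tested. Ocln, the gene of occludin, was at 46.7 ± 8.31 FPKM in Smad4 KO against 60.8 ± 10.0, and at 46.6 ± 6.71 in double mutants against 63.6 ± 11.3 (SD, n = 3 each). Neither difference, -0.38 and -0.44 in log2, passed (limma adjusted p = 0.325 and 0.122). F11r, the gene of junctional adhesion molecule A, had log2 fold changes of -0.07 and -0.31 (limma adjusted p = 0.904 and 0.146). Epcam, an adhesion protein that binds Cldn7, was at 865 ± 160 against 826 ± 137 FPKM in Smad4 KO and at 908 ± 79.8 against 863 ± 148 in double mutants (SD, n = 3 each, limma adjusted p = 0.908 and 0.779).

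Of 22 plaque and polarity genes tested, 0 passed in Smad4 KO (4 at an unadjusted p below 0.05, against 19.1% of all genes) and 3 fell in double mutants, against 9.09% of all genes. Mylk, the kinase that tightens the actomyosin ring and so loosens the junction, averaged 26.0 ± 8.85 FPKM in controls and fell to 10.6 ± 2.07 (SD, n = 3 each), a log2 difference of -1.18 (SE 0.25, limma adjusted p = 0.0287). Prkcz, an atypical protein kinase C of the polarity complex, fell from 9.77 ± 1.43 to 4.78 ± 0.772 FPKM (SD, n = 3 each), a log2 difference of -0.90 (limma adjusted p = 0.0179). Arhgef2, an exchange factor held at the junction, went down from 9.43 ± 2.32 to 4.99 ± 0.680 FPKM (SD, n = 3 each), a log2 difference of -0.79 (limma adjusted p = 0.0352). In Smad4 KO Mylk stood at 53.7%, Prkcz at 59.2% and Arhgef2 at 74.9% of control (log2 -0.88, -0.66 and -0.39). None of them passed there (limma adjusted p = 0.257, 0.124 and 0.461), and only the Arhgef2 libraries overlapped with controls. Without double mutant 0, 1 or 2, none of the 3 was called (adjusted p at most 0.110), and 1 gene of the list was called without control 1 or without the filter on low genes. The scaffolds Tjp1 and Tjp3, which anchor claudin tails, had log2 fold changes of -0.28 and 0.06 in Smad4 KO and -0.39 and 0.13 in double mutants, and did not pass (limma adjusted p at least 0.149). Of 16 adherens junction and desmosome genes 0 passed in either comparison. At an unadjusted p below 0.05 there was 1 in each, against 19.1% of all genes in Smad4 KO and 36.6% in double mutants. Cdh1, the gene of E-cadherin, was at 317 ± 80.8 against 257 ± 14.7 and at 321 ± 29.0 against 268 ± 17.2 FPKM (SD, n = 3 each).

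Among transcription factors that act on claudin genes or on epithelial differentiation, 12 of 16 were tested. None passed in Smad4 KO (3 at an unadjusted p below 0.05, against 19.1% of all genes) and 3 fell in double mutants, against 9.09% of all genes. Vdr, the vitamin D receptor, which is known to induce Cldn2 and Cldn12 in the gut, averaged 127 ± 29.7 FPKM in controls and fell to 51.0 ± 10.7 (SD, n = 3 each), a log2 difference of -1.30 (SE 0.24, limma adjusted p = 0.0215). In Smad4 KO it was at 48.8 ± 5.94 against 122 ± 27.0 FPKM, and did not pass (SD, n = 3 each, limma adjusted p = 0.107). Klf4 and Klf5, factors of the differentiated and the dividing epithelium, fell to 70.4% and 66.5% of control in double mutants (log2 -0.48 and -0.58, with limma adjusted p = 0.0290 and 0.0317). All 3 calls ended without any of the double mutant libraries, and without control 2 as well (adjusted p at most 0.124), and 1 factor was called without control 0 or 1.

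The genes whose levels ran most like each claudin were sought among 10728 named genes, by the smaller of the Pearson correlations over the 6 libraries of each table. With so many genes and 6 libraries that share controls, high values arise readily, and they are given as a description. Cldn15 ran most like Kbtbd11 and Slc35f2 (r = 0.99 in each table for both). Cldn2 ran most like Zrsr2 (0.98 and 0.99) and Nutf2 (0.99 and 0.98). Cldn3 was closest to Lsr, the gene of the tricellular junction protein angulin-1 (0.97 and 0.98), and to Rundc1 (0.96 and 0.96). Cldn7 was closest to Tspan31 (0.96 and 0.94) and Epcam (0.92 and 0.93), Cldn12 to Msl2 and Exo5, Cldn23 to Faah and Mgst1, and Cldn4 to Slc2a8 and Pcnxl4. Among the claudins themselves Cldn2 and Cldn15 had the most negative correlation (-0.93 and -0.89), which carries the group difference of both.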

How the data were processed

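RNA of 9 libraries had been prepared with a TruSeq kit, version 2, which does not mark strand, after release of the crypts with 3 mM EDTA and a 70 micron filter, per the labels' protocols. The authors deposited FPKM values in 2 tables; TopHat2 2.1.1, Cuffnorm 2.2.1, Cuffdiff 2.2.1 and the build mm9 are named, per the submitters' processing notes, and which annotation they used was not given in the sources used here. All columns were mapped to samples by name. Limma 3.58.1 under R 4.3.3 was run on each table by itself (pseudocount 1, genes averaging 1 FPKM or more, mean-variance trend), and the script was tested on simulated data. Summed FPKM ran from 568081 to 758719 per library. Levels, shares and motifs were computed with Python 3.11.15. The 9 claudins and all gene lists were chosen with earlier results of these data known. Named genes were the 9 claudins, other claudins with a mean of at least 1 FPKM, Smad4, a fixed set of junction genes (1 of which is not reported here), up to 4 called members of each list and direction (of which examples are printed for marker lists), and for each claudin the 2 genes most like it. Alternatives were other pseudocounts, filters, scalings and moderation, sex or replicate number as covariate, and each library left out. Reads shared between overlapping genes cannot be told apart. Lists of Paneth, goblet and tuft markers, read as checks, had 9, 8 and 5 tested members. Limma called 0 of each in Smad4 KO, against 0.0338% of all genes. In double mutants it called 0, 2 and 0, the 2 being lower, against 9.09% of all genes called lower. The 2 became 0 without double mutant 0 or 2. At an unadjusted p below 0.05 the lists held 0, 2 and 3 in Smad4 KO, against 19.1% of all genes. In double mutants they held 0, 2 and 2, against 36.6%.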

Additional observations from a re-analysis of the deposited data

How the results depend on the processing

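In Smad4 KO 0 of the claudins tested (7, or 9 without the filter) passed in each of the 15 alternatives, leaving out single libraries included (range 0 to 0). In double mutants the 2 called claudins became 1, Cldn2, without the filter on low genes, with the replicate block and with sex as a covariate. They numbered 0 to 2 when 1 library was left out, with 0 without double mutant 0 or 2. The causes were not tested. Whether replicate numbers pair the samples was not settled. Same-numbered libraries correlated at -0.11, 0.22 and -0.10 in Smad4 KO, where only number 1 correlated best with its own number. In double mutants they correlated at 0.07, 0.13 and 0.04, and each library correlated best with its own number. With the replicate block, all called genes numbered 1 against 4 in Smad4 KO and 1602 against 2173 in double mutants. Over all alternatives they ran from 1 to 16 and from 30 to 2360. Without Cldn7 in the total, which leaves a smaller denominator, share differences in percentage points became 12.0 for Cldn2, -19.4 for Cldn15 and 6.73 for Cldn3 in Smad4 KO (5.84, -9.89 and 3.14 with it), and 12.4, -21.6 and 10.1 in double mutants (5.65, -11.3 and 4.29 with it). With 1 library left out they ran in Smad4 KO over 4.95 to 6.64 (Cldn2), -11 to -8.88 (Cldn15), 2.41 to 4.18 (Cldn3) and in double mutants over 4.84 to 6.14 (Cldn2), -12.2 to -10.3 (Cldn15), 3.83 to 4.84 (Cldn3). Signs turned only for genes that never passed: Cldn7 in Smad4 KO (-0.070 without control 0, -0.06 without Smad4 KO 0), Cldn23 without control 2 (0.15 in Smad4 KO, 0.044 in double mutants) and Cldn4 in double mutants (0.0023 with quantile normalization, 0.07 without control 0, 0.12 without double mutant 1). Their ranges with 1 library left out were -0.07 to 0.15 for Cldn7, -0.32 to 0.15 and -0.44 to 0.044 for Cldn23 (Smad4 KO, double mutants), and -0.12 to 0.12 for Cldn4. Depth is unknown in reads, so no difference is read from Cldn1, and Cldn8 rests on values under 2 FPKM.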
